A study of Mus musculus with 2 samples.

Results

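The 35 genes described here encode collagen chains and the proteins that surround, bind or crosslink them in the extracellular matrix. They were chosen by symbol, and all 35 were found among the 28523 genes that the authors listed for the full single-cell data set. The data come from metastases in the livers of female BALB/c mice aged 6 to 8 weeks at injection. The mice had received 250000 cells of 4T1, a triple-negative mammary tumour line of the mouse, into the spleen, which was then removed, and the metastases were taken 14 days later. The control library (shSCR) came from 4T1 cells with a scrambled hairpin, and the other library (shZdhhc17) from 4T1 cells with a hairpin against Zdhhc17, a palmitoyltransferase gene. Both hairpins were delivered by lentivirus with puromycin selection to the injected cells, so the fibroblasts and other host cells of both groups came from mice that had received no hairpin. Cells of 3 separate dissociations were pooled per group before capture, so each group is 1 library and differences can be set against counting error only.

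Fibrillar collagens form the tensile fibres of connective tissue, while collagen IV, laminins, nidogen and perlecan form the sheet-like basement membrane under endothelium and epithelium. In injured or tumour-bearing liver, activated stellate cells and portal fibroblasts are known as the main makers of fibrillar collagen, and endothelial cells as makers of basement membrane components. Proteoglycans and matricellular proteins then tune fibre assembly and cell adhesion, and lysyl oxidases crosslink the fibres.

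The measurements on each gene are flags, not levels. For all cells, the authors flagged the 1000 most variable genes, which they used for the dimensional reduction of the full data set. For neutrophils they gave a separate list of 21544 genes, again with 1000 flagged as most variable, and a list of 180 cluster markers. Neither the ranking of variability nor the rule by which a gene entered the neutrophil list is described in the sources used here. Every flag was made over both libraries together, so none of them compares shSCR with shZdhhc17, and the level of these genes per cell type or library was not analysed here. Since the flagged genes entered the reduction behind the annotation of the cells, the flags and the cell labels are not independent.

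Most of the matrix genes were among the most variable genes of the whole data set. The flag was set for 26 of the 35, or 74.3%, against 3.51% of all genes in the table. Among the 15 collagen chains it was set for 13, and among the 20 other matrix genes also for 13. Since the genes were chosen with results of these data known, these shares describe them and were not tested.

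**Figure D1:**
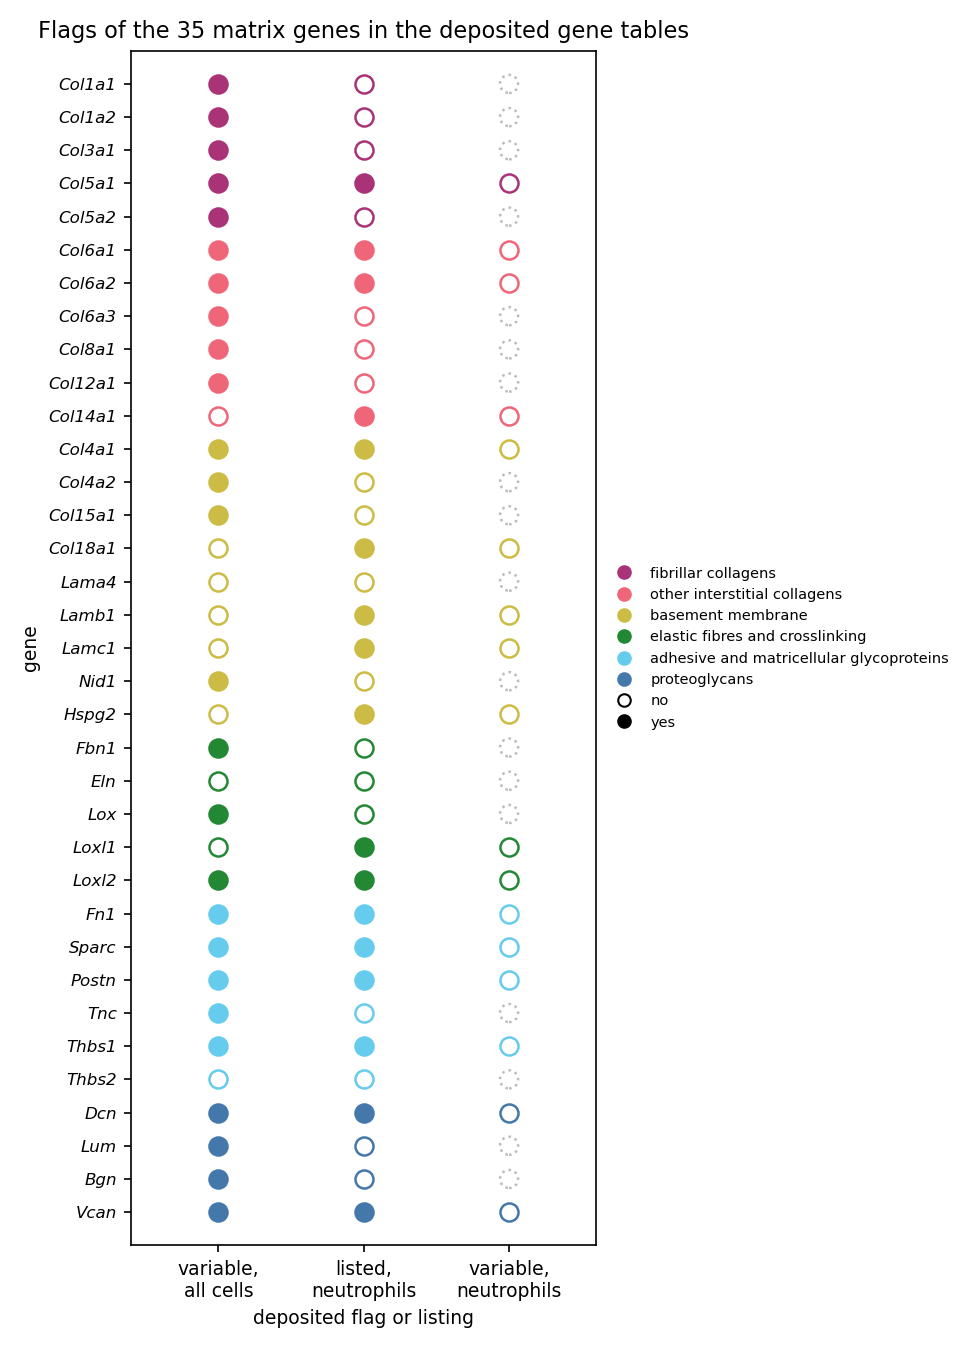
Each row is 1 of the 35 genes, coloured by role, and each column a deposited flag or listing (filled for yes, open for no, dotted where a gene is not in the neutrophil list and so has no flag there). The first column is filled for 26 genes, the second for 17 and the last for none.

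The 5 fibrillar collagen genes were all flagged as variable across all cells. Col1a1 (chromosome 11, 94936224 to 94953042, plus strand) and Col1a2 (chromosome 6, 4504814 to 4541544, plus strand) encode the chains of collagen I, the main collagen of scar and tumour stroma. Col3a1 (chromosome 1, 45311538 to 45349706, plus strand) encodes collagen III, which shares fibrils with collagen I. Col5a1 (chromosome 2, 27886425 to 28039514, plus strand) and Col5a2 (chromosome 1, 45374321 to 45503282, minus strand) encode chains of collagen V, which controls the diameter of those fibrils. Positions are those of GENCODE M21 on GRCm38, where all 35 genes are protein-coding.

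Of the 6 other interstitial collagen genes, 5 carried the flag. They were Col6a1, Col6a2 and Col6a3, whose chains form the beaded filaments around cells, Col8a1, which encodes a short-chain collagen of vessel walls, and Col12a1, whose product decorates collagen I fibrils. Col14a1, which encodes a fibril-associated relative of the Col12a1 product, did not carry it.

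The basement membrane genes were split. The flag was set for 4 of 9, namely Col4a1 and Col4a2, which encode the chains of the most widespread collagen IV network, Col15a1, and Nid1, which encodes the laminin-binding linker nidogen 1. It was not set for the laminin chain genes Lama4, Lamb1 and Lamc1, for Hspg2, which encodes the heparan sulphate proteoglycan perlecan, or for Col18a1, whose product is the precursor of endostatin. None of the 3 laminin genes was therefore among the genes that shaped the reduction of all cells.

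Among the elastic fibre and crosslinking genes, 3 of 5 were flagged. Fbn1, which encodes the microfibril protein fibrillin 1, and the lysyl oxidase family genes Lox and Loxl2 carried the flag. Eln, which encodes elastin, and Loxl1, known for its part in elastic fibre upkeep, did not.

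All 4 proteoglycan genes were flagged. Dcn and Lum encode decorin and lumican, small leucine-rich proteoglycans that bind collagen fibrils, Bgn encodes the related biglycan, and Vcan the large proteoglycan versican. Of the 6 adhesive and matricellular glycoprotein genes, 5 were flagged. These were Fn1 (fibronectin), Sparc (a collagen-binding matricellular protein), Postn (periostin), Tnc (tenascin C) and Thbs1 (thrombospondin 1, an activator of latent TGF-beta). Thbs2, which encodes the closely related thrombospondin 2, was not flagged, so the thrombospondin genes differed in this respect.

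Fewer of the matrix genes were found in the neutrophil list. Of the 35 genes, 17 (48.6%) were in the neutrophil gene list, against 75.5% of all genes in the table. Among the 26 genes flagged as variable across all cells, 11 (42.3%) were in the neutrophil list, where 80.5% of all such flagged genes were. Among the 9 unflagged genes, 6 (66.7%) were in it, against 75.4% of all unflagged genes. The 6 of 9 lie near that background, so no difference between unflagged and flagged genes was read from these counts.

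The genes left out of the neutrophil list included 4 of the 5 fibrillar collagen genes. The share listed was thus 20.0%, against 48.6% of the 35 and 75.5% of all genes. With 5 genes, no difference from the other matrix genes is read from this. Col1a1, Col1a2, Col3a1 and Col5a2 were not in it, and Col5a1 was. Col6a3, Col8a1, Col12a1, Col4a2, Col15a1, Lama4, Nid1, Fbn1, Eln, Lox, Tnc, Thbs2, Lum and Bgn were not in it either. The genes it did hold besides Col5a1 were Col6a1, Col6a2, Col14a1, Col4a1, Col18a1, Lamb1, Lamc1, Hspg2, Loxl1, Loxl2, Fn1, Sparc, Postn, Thbs1, Dcn and Vcan. A listing gives no level, and the share of it owed to free RNA or to other cells among the neutrophils was not tested.

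None of the 17 listed genes was flagged as variable among neutrophils, where 4.64% of the listed genes were. With a background that low, a count of 0 among 17 genes is no result about them. None of the 35 was among the 180 cluster markers either, which are 0.835% of the neutrophil list, so nothing is read from that absence.

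The enzymes and chaperones that build collagen were read beside the matrix genes themselves. Of the 26 genes for collagen assembly and processing found in the table, none was flagged across all cells, which at the background of 3.51% is no result about them, among them Serpinh1 (the collagen chaperone HSP47), the prolyl hydroxylase genes P4ha1 and P4ha2 and the lysyl hydroxylase genes Plod1, Plod2 and Plod3. In the neutrophil list, 21 of these 26 (80.8%) were present, near the 75.5% of all genes. P4ha1 and P4hb were flagged as variable there, 9.52% of the 21 against a background of 4.64%. P4ha1 encodes the catalytic alpha subunit of the prolyl hydroxylase of collagen, and P4hb its beta subunit, which is also a general disulphide isomerase. P4hb was also the only gene of this list among the 180 neutrophil markers, which are 0.835% of the neutrophil list. The authors named its cluster Hypoxia/Angiogenesis. With counts of 2 and 1 among 21 genes, nothing is read from them about collagen assembly in neutrophils.

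Of 22 matrix receptor genes, Itgb3 and Cd36 (9.09%) were flagged across all cells, against 3.51% of all genes. In the neutrophil list were 17 of the 22 (77.3%), near the 75.5% of all genes. Among neutrophils, the integrin genes Itga5, Itgav, Itgb1 and Itgb3 and the hyaluronan receptor gene Cd44 were flagged. Of 50 other matrix protein genes, 6 were flagged across all cells (Col4a6, Fbn2, Mfap4, Prelp, Ccn2 and Lamb3), 33 were in the neutrophil list, and Ecm1 and Lamb3 were flagged there. The 5 flagged receptor genes were 29.4% of the 17 in the neutrophil list, and the 2 flagged matrix protein genes 6.06% of 33, against a background of 4.64%. Of the 35, the 0 of 17 and this last share lie near that background, so no difference between them was read from these counts.

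The table holds 44 collagen chain genes, which is all 44 that GENCODE M21 lists as protein-coding. Outside the 15 chains described here, 1 of 29 was flagged as variable (Col4a6, 3.45%), and 21 of 29 (72.4%) were in the neutrophil list. Those shares lie near the backgrounds of 3.51% and 75.5%.

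**Figure D2:**
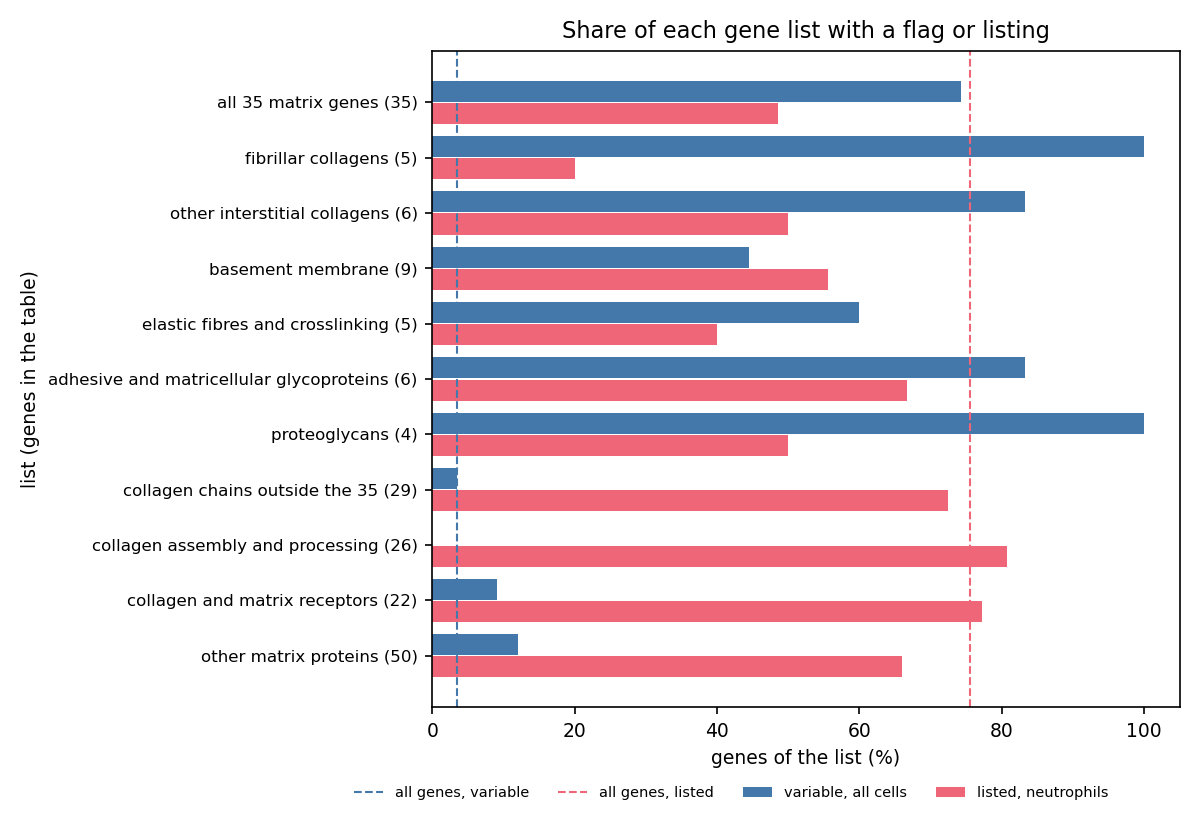
Bars give the percent of each gene list flagged as variable across all cells (blue) or present in the neutrophil list (red), with the number of genes in parentheses and dashed lines at the percent of all genes. The 35 genes stand at 74.3% and 48.6%, while at most 6 genes carry the flag in any list below the role groups.

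Marker genes of the cell types that could make these proteins were read in the same way. Of the fibroblast markers, 4 of 6 were flagged across all cells, and these 4 (Dcn, Col1a1, Col3a1 and Lum) belong to the 35, while Pdgfra and Pdgfrb were not flagged. Of the myofibroblast markers all 4 were flagged (Acta2, Tagln, Myl9 and Postn, of which Postn belongs to the 35), of the stellate cell and pericyte markers 2 of 6 (Lrat and Rgs5), and of the mesothelial markers 0 of 4. Flags were set for all 6 endothelial markers, 4 of 5 Kupffer cell markers, 2 of 3 hepatocyte markers, 1 of 3 cholangiocyte markers and all 4 neutrophil markers. None of the 5 keratin and Epcam markers of 4T1 cells was flagged. At the background of 3.51% of all genes, this count and the 0 of 4 mesothelial markers are no result about them. No level was compared, so the labels of the cells could not be checked against these markers here.

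In 4 places of the genome, consecutive protein-coding genes both belonged to the set. All 8 of these genes carried the all-cell flag, in a set where 74.3% did, so nothing is read from this about neighbours. Col3a1 and Col5a2 lie tail to tail on chromosome 1 with 24614 bases between them, and neither was in the neutrophil list. Col6a2 (76595762 to 76623630) and Col6a1 (76708792 to 76726168) lie on the minus strand of chromosome 10, and both were in it. Chromosome 10 held 6 of the 35 genes and chromosome 1 held 5. The share of all genes on each chromosome was not computed, so nothing is read from these counts.

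The 2 other pairs parted in the neutrophil list. Dcn (97479609 to 97518143) and Lum (97565128 to 97572703) lie on the plus strand of chromosome 10, and Dcn was listed but Lum was not. Col4a1 (chromosome 8, 11198423 to 11312826, minus strand) and Col4a2 (11312805 to 11449287, plus strand) lie head to head with 22 bases of overlap, and Col4a1 was listed but Col4a2 was not. Whether the counting used strand is not given in the sources used here. Another annotated gene overlapped 22 of the 35, and a protein-coding one overlapped 4, namely Col4a1 and Col4a2 with each other, Col18a1 with Slc19a1, and Fbn1 with Gm9913.

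The cells in which these genes could be read differed in number and depth. The libraries held 22860 (shSCR) and 21511 (shZdhhc17) cells. A cell barcode found in both libraries occurred 609 times (2.66% of shSCR and 2.83% of shZdhhc17 cells), with the same cell type label in 96 of these cases. It belonged to 9 shSCR and 19 shZdhhc17 fibroblasts, with no barcode labelled fibroblast in both.

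Fibroblasts, the cells best known for making fibrillar collagen, numbered 510 of 22860 cells in shSCR and 545 of 21511 in shZdhhc17. They gave 3.03% and 3.37% of the UMIs (counted molecules) of their libraries. The ratio of their cell shares, shZdhhc17 over shSCR, was 1.14 (95% counting interval 1.01 to 1.28), while the exact intervals of the shares overlapped. Without the shared barcodes the ratio was 1.12 (0.990 to 1.26), and among cells other than cancer cells it was 1.31 (1.16 to 1.48), there with separate exact intervals. Endothelial cells gave 1.02% and 1.25% of the UMIs, Kupffer cells, the resident liver macrophages, 2.63% and 3.74%, and cancer cells 37.6% and 49.1%. The ratios of cell shares were larger in these types, 1.54 for endothelial, 1.48 for Kupffer and 1.36 for cancer cells, with separate exact intervals. Among cells other than cancer cells the ratios were 1.78 for endothelial and 1.70 for Kupffer cells, so the rise was not particular to fibroblasts. Neutrophils numbered 6594 of 22860 and 4328 of 21511 cells, and the part of their share in the other shares was not tested.

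The fibroblasts came from 4 of the authors' initial clusters, numbered 18, 84, 87 and 113, and the endothelial cells from 2. Cluster 87 held 148 of 510 shSCR fibroblasts, 29.0% (exact interval 25.1 to 33.2), and 113 of 545 shZdhhc17 fibroblasts, 20.7% (17.4 to 24.4). The ratio was 0.714 (0.577 to 0.884), with separate exact intervals that lay close to each other. Cluster 18 held 39.6% (35.3 to 44.0) and 47.2% (42.9 to 51.4), a ratio of 1.19 (1.04 to 1.37), with overlapping exact intervals.

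Shares of the other fibroblast clusters overlapped more widely. Cluster 84 held 21.8% of shSCR and 22.8% of shZdhhc17 fibroblasts (ratio 1.05, 0.834 to 1.31), and cluster 113 held 9.61% and 9.36% (ratio 0.974, 0.671 to 1.41). The lower share of cluster 87 did not hold with separate intervals as a share of all cells (ratio 0.811, 0.636 to 1.04), without the top 5% of fibroblasts by UMIs (0.731) or at low mitochondrial percent (0.723). As shares of all cells, cluster 18 was higher with separate intervals (1.35, 1.13 to 1.62). The matrix genes that set these clusters apart were not analysed here, so the clusters are given by number.

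**Figure D3:**
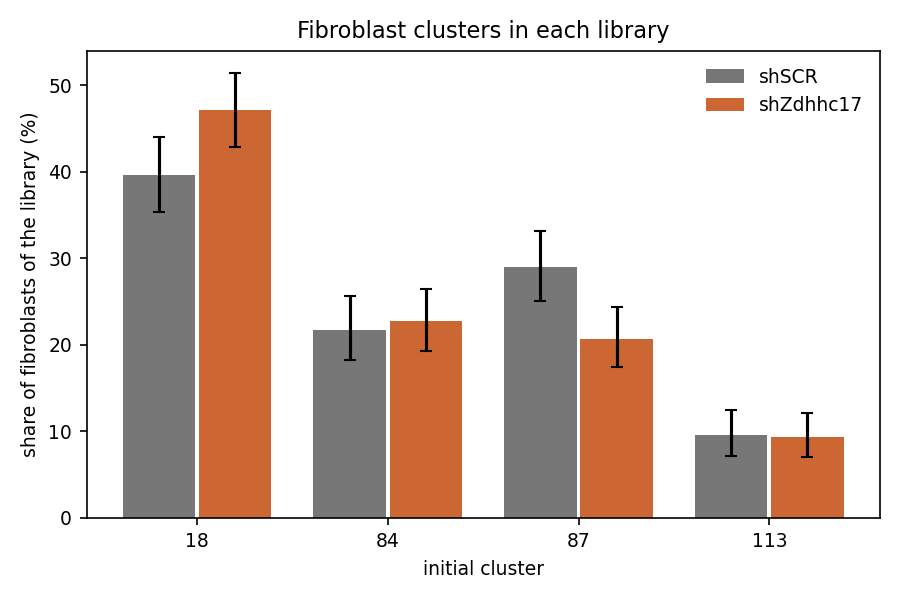
Bars give the share of each initial cluster among the fibroblasts of a library in percent (510 cells in shSCR, 545 in shZdhhc17), with exact 95% binomial intervals. The intervals of cluster 87 are separate, 29.0% against 20.7%, and those of clusters 18, 84 and 113 overlap.

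The authors set some cells of these clusters apart as doublets. Of the cells in cluster 18, 95.2% kept the fibroblast label, of cluster 87 92.2%, of cluster 84 80.5%, and of cluster 113 52.4%. Cluster 113 gave the fewest fibroblasts, 100 of its 191 cells. The rest were doublets labelled D12, D13 and D14, deposited with a leading question mark that is left out here. Cluster 113 was also the smallest with doublets counted in, against 482 cells in cluster 18, 292 in cluster 84 and 283 in cluster 87. With the doublets counted in, the ratio of cluster 87 was 0.701 (0.571 to 0.862), again with separate intervals.

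Depth per cell bears on how readily a matrix transcript is detected, and it differed between the libraries. Fibroblasts had a median of 12725.5 UMIs in shSCR (95% interval of the median 11814 to 13800) and 10393 in shZdhhc17 (9884 to 11221), with 3542.5 and 3207 detected genes. The ratio of the medians was 0.817, near that of cancer cells (0.805) and Kupffer cells (0.820). Endothelial cells were shallower, with medians of 6434 and 4517 UMIs (ratio 0.702).

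Within the shSCR fibroblasts, clusters 87 and 113 had the highest medians, with overlapping intervals. Cluster 87 had 15152.5 UMIs in shSCR (13613 to 16906) and 11754 in shZdhhc17 (9517 to 13829), a ratio of 0.776. Cluster 113 had 14845 (13713 to 15995) and 11665 (11038 to 12355, ratio 0.786), and cluster 84 had 11006 and 8896.5 (ratio 0.808). Cluster 18 differed least, with 11499.5 and 10807 and overlapping intervals (ratio 0.940).

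Cluster 84 also had the lowest mitochondrial share, with medians of 3.27% in shSCR and 3.60% in shZdhhc17, against 5.11% and 5.44% in cluster 18. Cluster 87, with the lower share of shZdhhc17 fibroblasts (ratio 0.714), had a ratio of median depth of 0.776. Clusters 113 and 84 had depth ratios near it, 0.786 and 0.808, with share ratios of 0.974 and 1.05. In cluster 18 the ratios were 0.940 for depth and 1.19 for the share. The part of depth in the cluster shares was not tested.

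Neutrophils, in whose list so many matrix genes were missing, had medians of 2464 and 1418 UMIs, far below the fibroblasts. The part of this depth in the neutrophil listing was not tested.

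**Figure D4:**
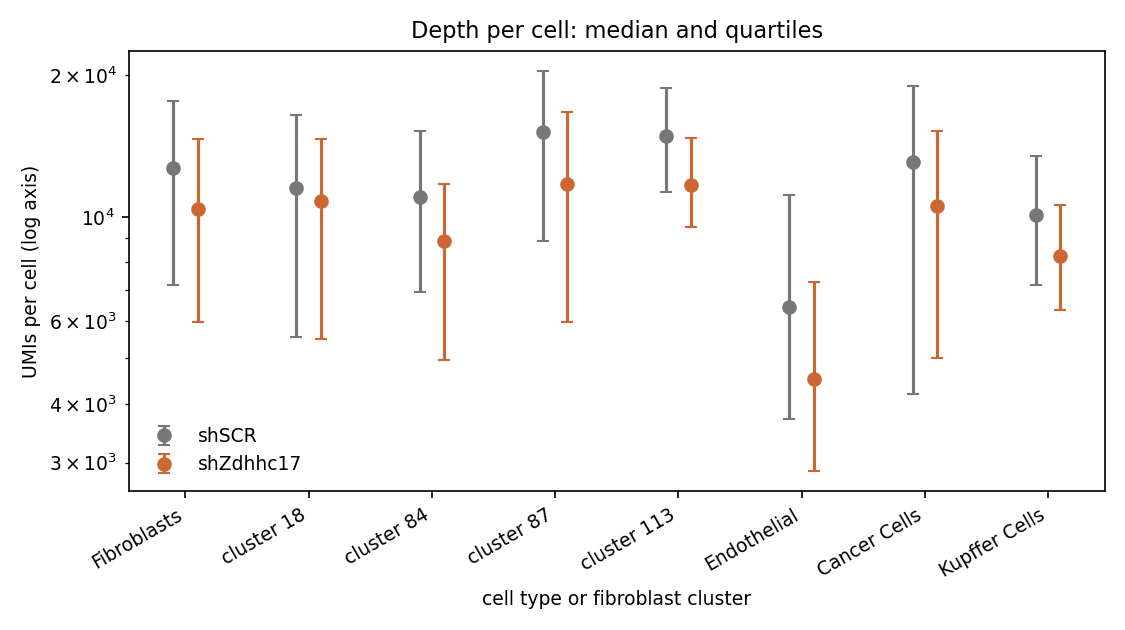
Points give the median UMIs per cell on a log axis and bars the lower and upper quartiles, for fibroblasts, their 4 initial clusters and 3 other cell types, in shSCR (grey) and shZdhhc17 (orange). The shZdhhc17 medians lie below the shSCR medians in every class shown, least in cluster 18 (10807 against 11499.5).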

How the data were processed

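Per the labels' protocols, metastases were dissected, dissociated and pooled from 3 mice per group and captured on a BD Rhapsody cartridge (microwells) with a target of 15000 cells. Reads were processed with the BD Rhapsody pipeline, per the file headers, after which the authors corrected for ambient (free) RNA, clustered all cells, reclustered selected sets and named cell types from markers. Gene symbols are those of GRCm38 (mm10). The tool list in the submitters' processing notes holds Seurat 4.1.0. The deposited cell table gives, per cell, whole-number counts of UMIs and of genes, and the mitochondrial percent of its UMIs. The smallest cell had 500 UMIs. The libraries held 214842365 (shSCR) and 172527305 (shZdhhc17) UMIs. The deposited gene tables hold flags per gene only.

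Genes were matched by exact symbol, with positions from GENCODE M21 (GRCm38). Flags were counted per list and set beside the percent of all genes, with no test. Shares have exact (Clopper-Pearson) 95% intervals, ratios log-normal 95% counting intervals, and medians order-statistic 95% intervals (Python 3.11.15, scipy 1.17.1). All cover counting error only, so a share is called higher or lower only where the exact intervals were separate. A count of 0 fibroblasts would allow up to 0.588% of shSCR and 0.550% of shZdhhc17 fibroblasts, from 3 cells. The 3 kinds of interval were tested on simulated data. Doublets stayed in the denominators of all cells, and no doublet caller was run.

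The 35 genes, their role groups and the lists were chosen with earlier results of these data known. The rule named every gene of the set with a flag, missing from a table or next to another gene of the set, and other genes only from the lists for collagen assembly and processing, matrix receptors, other matrix proteins and cell type markers. The symbols Leprel1 and Ctgf, alternative names on 2 of the lists, were not in the table. Alternatives changed the background genes, denominators, and filters on UMIs, mitochondrial percent and doublets. Removal of shared barcodes and inclusion of doublets in the clusters were added after the data were seen.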

Additional observations from a re-analysis of the deposited data

Results flagged for a closer look

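The doublet label D12 was more common among the cells of the 4 fibroblast clusters in shZdhhc17 than in shSCR. It held 71 of 666 such cells in shZdhhc17, 10.7% (exact interval 8.42 to 13.3), and 24 of 582 in shSCR, 4.12% (2.66 to 6.07), a ratio of 2.59 (1.65 to 4.05). It stands here because doublets were outside the comparisons of fibroblasts and the share lay above that of the control library with separate exact intervals. Most of these cells were in cluster 84, where D12 held 38 of 169 shZdhhc17 cells, 22.5% (16.4 to 29.5), and 12 of 123 shSCR cells, 9.76% (5.14 to 16.4), with intervals that nearly touched. In clusters 18, 87 and 113 the intervals overlapped. The doublet label D13 went the other way in the 4 clusters, 4.64% in shSCR and 2.40% in shZdhhc17 (ratio 0.518, 0.282 to 0.951). Label D14 held 3.61% and 5.11% (ratio 1.41, 0.831 to 2.41), and for both labels the exact intervals overlapped. The D12 cells had a median of 14687 UMIs and a mitochondrial median of 7.30%, against 11556 UMIs and 4.82% in fibroblasts. No explanation was tested.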

How the results depend on the processing

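Of 58 alternative values, 50 stayed within the 95% interval of the reported value and 8 did not. For the gene flags that was the exact binomial interval of the share of the 35 genes divided by the background share, used as a tolerance only. The neutrophil flag share of 0 could not move with the background, and upper-case matching of symbols gave the same counts. A value within the interval could still change the call. Cluster 87 went from separate to overlapping intervals as a share of all cells, without the top 5% by UMIs and at low mitochondrial percent. Cluster 18 went from overlapping to separate intervals as a share of all cells. With protein-coding genes as background, the matrix genes carried the all-cell flag 15.9 times as often as the background, against 21.2 times with all genes. Among cells other than cancer cells the ratio of shares was 1.31 for fibroblasts, then with separate intervals, and 1.70 for Kupffer cells. For cancer cells it was 1.42 with at least 1000 UMIs, 1.41 without the top 5% by UMIs and 1.43 at low mitochondrial percent, against 1.36. Low mitochondrial percent gave 1.28 (0.925 to 1.77) for endothelial cells, with overlapping intervals, and 1.93 (1.49 to 2.51) for Kupffer cells, against 1.54 and 1.48. For cell types this filter kept cells at or under 5.57%, the median of all cells. Lower quartiles were 5.54% (shSCR) and 6.06% (shZdhhc17) in endothelial cells, and 6.10% and 5.91% in Kupffer cells. Medians of cancer cells were 7.29% and 7.43%, so the filter kept a minority of each of these types. The cause of the changed ratios was not tested. Levels per cell type, with another normalization and a count minimum, were not computed, since counts per gene and cell were not analysed here. No paired analysis was possible because each group has 1 library. With 1 library per group, no library could be left out, and differences between mice are unknown.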
